A study of Mus musculus with 9 samples.

Results

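Transcripts of 10 genes of the Notch pathway, out of 23420 genes listed in the count matrix, were followed in endothelial cells sorted from mouse brain. The genes were chosen by name: the receptors Notch1 and Notch4, the ligands Dll4, Jag1 and Jag2, the DNA-binding factor Rbpj, and the target genes Hes1, Hey1, Hey2 and Heyl. The cells were labelled CD31+CD45-, which selects for an endothelial surface protein and against leukocytes, and 20000 of them went into each bulk Smart-seq2 library. All mice were labelled C57BL/6, male and 6 months old. WT mice were the wild-type controls, APP/PS1 mice are a transgenic model in which amyloid is deposited in the brain, and APP/PS1xRIPK1KD mice carry the same transgenes together with an alteration of Ripk1, a kinase in the signalling of death receptors. The meaning of KD and the promoters of the transgenes were not given in the sources used here. With 3 libraries per genotype, the 3 genotypes were compared pairwise.

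Notch receptors are activated by ligands on a neighbouring cell, which leads to cleavage of the receptor by ADAM10 and γ-secretase and frees its intracellular part. That part enters the nucleus and joins RBPJ, turning it from a repressor into an activator of genes such as those of the Hes and Hey families, which are themselves repressors of transcription. In vessels the pathway is known for restraining sprouting, for arterial identity and, through JAG1 on endothelial cells and NOTCH3 on mural cells, for the smooth muscle coat. γ-Secretase also cuts the amyloid precursor protein.

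Total expected counts ran from 16263792 in APP/PS1 replicate 1 to 52413200 in APP/PS1 replicate 3, with a median of 46603518, and the precursor of ribosomal RNA listed as Rn45s held 15.8% to 33.8% of them. The endothelial genes Pecam1 (976 to 1234 CPM, the count scaled by the size and composition of the library) and Cldn5 (5597 to 8458 CPM) were abundant in all 9 libraries. The labels and the libraries did not match in 1 respect: Xist, which is transcribed from the inactive X chromosome of female cells, stood at 264 to 534 CPM in replicates 1 and 2 of every genotype and at no more than 4.78 CPM in each replicate 3. The main differences are also given for replicates 1 and 2 alone. Ripk1 stood at 45.02, 48.1 and 35.0 CPM in WT, at 75.3, 52.9 and 40.9 CPM in APP/PS1 and at 31.4, 44.9 and 35.5 CPM in APP/PS1xRIPK1KD, with overlap between all 3 genotypes. Summed transcripts of 13 markers of mural cells (pericytes and smooth muscle cells) were 59.5, 13.8 and 41.8 CPM in WT, 183, 231 and 189 CPM in APP/PS1, and 66.2, 109.8 and 254 CPM in APP/PS1xRIPK1KD, so that WT lay below both other genotypes in every library (exact permutation p = 0.1 for each, the smallest that 3 libraries against 3 allow), and none of the 13 was at 0 throughout a genotype.

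All 10 genes passed the filter on low counts, as 13317 genes did. Heyl passed it through the libraries of the other genotypes, since WT replicates 2 and 3 held only 1 and 5 counts of it. Its comparisons with WT are therefore given as description. No member was past a false discovery rate (FDR) of 0.05 by edgeR's quasi-likelihood test in any of the 3 comparisons. Of all genes, 0.0225% were past it in APP/PS1 against WT, 0.00751% in APP/PS1xRIPK1KD against APP/PS1 and 0.0375% in APP/PS1xRIPK1KD against WT. The libraries of the genotypes overlapped for every member except Jag1 in the first comparison and Heyl in the last, where 10.9%, 9.98% and 12% of all genes had libraries without overlap in the same order. The values of every library are given for each gene in turn, receptors first, with group values as mean ± SD over 3 libraries and positions from GENCODE M21 on GRCm38.

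**Figure D1:**
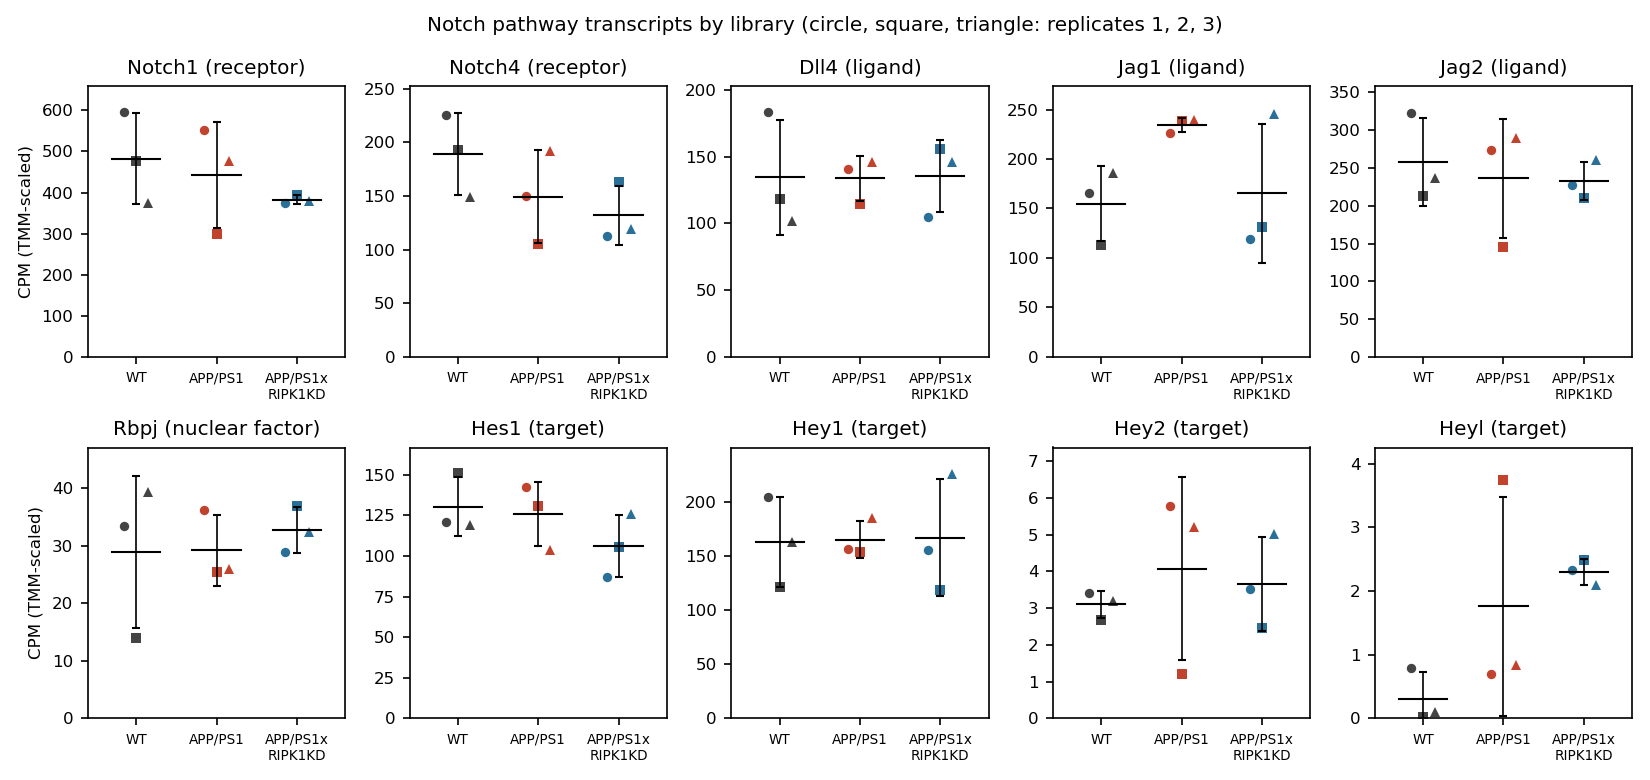
Scaled CPM of the 10 genes (vertical axes from 0, 1 panel per gene) in the 9 libraries by genotype, with replicates 1, 2 and 3 as circle, square and triangle, a horizontal bar for the mean and an error bar of 1 SD. The 3 APP/PS1 libraries lie above the 3 WT libraries for Jag1, and the 3 APP/PS1xRIPK1KD libraries lie above WT for Heyl, while the points of the other genes are mixed.

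Notch1, the receptor through which most endothelial Notch signalling runs (chromosome 2, 26457903 to 26516663, minus strand), stood at 596, 477 and 375 CPM in WT, at 551.5, 299 and 476 CPM in APP/PS1, and at 374, 394.5 and 379 CPM in APP/PS1xRIPK1KD. Its highest library was WT replicate 1 and its lowest APP/PS1 replicate 2, and the APP/PS1xRIPK1KD libraries lay close together inside that range. The log2 difference of APP/PS1 from WT was -0.13 (95% interval -0.58 to 0.33) and that of APP/PS1xRIPK1KD from WT was -0.33 (-0.79 to 0.12), with FDR 0.974 and 0.902 by edgeR. The second of these ran from -0.49 without WT replicate 3 to -0.15 without WT replicate 1, and was -0.48 in replicates 1 and 2 alone. APP/PS1xRIPK1KD differed from APP/PS1 by -0.21, and this was -0.41 without APP/PS1 replicate 2 and -0.02 without APP/PS1 replicate 1.

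Notch4, a receptor found mainly in endothelial cells (chromosome 17, 34564268 to 34588503, plus strand), stood at 225.5, 193 and 149 CPM in WT, at 150.3, 105 and 192 CPM in APP/PS1, and at 113, 163 and 119.5 CPM in APP/PS1xRIPK1KD. The WT libraries were the highest on average, at 189 ± 38.3 CPM, but the lowest of them lay under an APP/PS1xRIPK1KD library and under a pair of APP/PS1 libraries. APP/PS1xRIPK1KD differed from WT by -0.52 on the log2 scale (95% interval -1.01 to -0.04), with an unadjusted p of 0.0376 and FDR 0.776 by edgeR. That difference stayed negative, between -0.69 and -0.38, when each library was left out in turn, and it was -0.60 in replicates 1 and 2 alone. APP/PS1 differed from WT by -0.34 (edgeR FDR 0.871), a value that was -0.71 in replicates 1 and 2 alone (unadjusted p 0.01, edgeR FDR 0.319). It was -0.57 without APP/PS1 replicate 3, -0.20 without WT replicate 1 and -0.15 without APP/PS1 replicate 2.

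Dll4, the ligand of arterial and sprouting endothelial cells (chromosome 2, 119325784 to 119335962, plus strand), stood at 183, 118 and 102 CPM in WT, at 141, 114 and 146 CPM in APP/PS1, and at 105, 155 and 146 CPM in APP/PS1xRIPK1KD. The 3 means were within 2 CPM of each other, at 134.4, 133.7 and 135.4 CPM, and WT held both the highest and the lowest library. The log2 difference of APP/PS1 from WT was -0.01 with a 95% interval of -0.48 to 0.46, and that of APP/PS1xRIPK1KD from APP/PS1 was 0.02 with an interval of -0.45 to 0.49.

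Jag1, the ligand that endothelial cells present to smooth muscle cells and that can weaken signalling by DLL4 during sprouting (chromosome 2, 137081456 to 137116644, minus strand), stood at 165, 113 and 186 CPM in WT, at 227, 238 and 239 CPM in APP/PS1, and at 119, 131 and 246 CPM in APP/PS1xRIPK1KD. Every APP/PS1 library was above every WT library, and the APP/PS1 libraries were within a narrow range. In APP/PS1xRIPK1KD the first and second replicates lay in the range of WT, whereas the third lay above all APP/PS1 libraries. APP/PS1 averaged 235 ± 6.95 CPM against 155 ± 38.0 CPM in WT, a log2 difference of 0.60 (95% interval 0.05 to 1.15), with an unadjusted p of 0.0343 and FDR 0.795 by edgeR. The difference was 0.42 without WT replicate 2, the lowest WT library, and 0.76 without WT replicate 3. It was 0.74 in replicates 1 and 2 alone (edgeR FDR 0.255).

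APP/PS1xRIPK1KD differed from APP/PS1 in Jag1 by -0.51 (95% interval -1.06 to 0.04) and from WT by 0.09 (-0.45 to 0.64), with FDR 1 and 0.999 by edgeR. The first of these rested on which libraries were kept. Without APP/PS1xRIPK1KD replicate 3 it was -0.91 (unadjusted p 0.00069, edgeR FDR 0.431), in replicates 1 and 2 alone it was -0.90 (FDR 0.319), and without APP/PS1xRIPK1KD replicate 1 it was -0.31. The difference from WT turned to -0.30 without APP/PS1xRIPK1KD replicate 3 and to -0.16 in replicates 1 and 2 alone. The summed mural markers and Acta2, an actin of smooth muscle, were highest in the libraries in which Jag1 was highest, those of APP/PS1 and APP/PS1xRIPK1KD replicate 3. Acta2 stood at 18.8, 1.13 and 11.8 CPM in WT, at 39.4, 60.1 and 55.6 CPM in APP/PS1, and at 4.86, 21.5 and 96.6 CPM in APP/PS1xRIPK1KD. Acta2 is itself 1 of the 13 mural markers, and Vtn, Kcnj8, Tagln and Myh11 were also highest in the same libraries as Jag1. The other mural markers were not. In APP/PS1xRIPK1KD replicate 3, Abcc9 (2.88 CPM) and Notch3 (4.22 CPM) were at their lowest for that genotype. In bulk libraries a smaller number of cells of a type and less RNA per cell cannot be told apart, and the part of mural transcripts in the Jag1 values was not tested.

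Jag2, the other Jagged ligand in the set (chromosome 12, 112907819 to 112929776, minus strand), stood at 323, 212 and 237 CPM in WT, at 274, 146 and 289.7 CPM in APP/PS1, and at 228, 210.4 and 259.9 CPM in APP/PS1xRIPK1KD. As for Notch1, WT replicate 1 was the highest library and APP/PS1 replicate 2 the lowest. The log2 differences were -0.12 for APP/PS1 against WT, -0.02 for APP/PS1xRIPK1KD against APP/PS1 and -0.15 for APP/PS1xRIPK1KD against WT, each with a 95% interval that lay within 2-fold in either direction.

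Rbpj, the DNA-binding factor that the released receptor fragment joins in the nucleus (chromosome 5, 53466152 to 53657362, plus strand), stood at 33.5, 14.0 and 39.4 CPM in WT, at 36.3, 25.5 and 25.9 CPM in APP/PS1, and at 28.9, 36.9 and 32.45 CPM in APP/PS1xRIPK1KD. WT held its lowest and its highest library, and WT replicate 2 stood apart at the low end. The log2 differences were 0.01 for APP/PS1 and 0.18 for APP/PS1xRIPK1KD against WT, with 95% intervals of -0.67 to 0.69 and -0.50 to 0.85.

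Hes1, a repressor induced by Notch in many cell types (chromosome 16, 30064384 to 30067796, plus strand), stood at 121, 151 and 119 CPM in WT, at 143, 130.5 and 104 CPM in APP/PS1, and at 87.1, 106 and 126 CPM in APP/PS1xRIPK1KD. The APP/PS1xRIPK1KD mean of 106 ± 19.3 CPM was the lowest of the 3, but its libraries overlapped those of both other genotypes. Its log2 difference from WT was -0.30 (95% interval -0.67 to 0.07, edgeR FDR 0.889), and its difference from APP/PS1 was -0.24 (FDR 1). In replicates 1 and 2 alone both were -0.50 (unadjusted p 0.017 and 0.0163, edgeR FDR 0.607 and 0.485). The difference from WT was -0.43 without APP/PS1xRIPK1KD replicate 3, -0.17 without WT replicate 2 and -0.16 without APP/PS1xRIPK1KD replicate 1, and that from APP/PS1 ran from -0.38 to -0.11 with 1 library left out, being lowest and highest without replicates 3 and 1 of APP/PS1xRIPK1KD.

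Hey1, a target associated with arterial endothelium (chromosome 3, 8663359 to 8667256, minus strand), stood at 205, 121 and 162 CPM in WT, at 156.5, 153 and 185 CPM in APP/PS1, and at 156, 119 and 226 CPM in APP/PS1xRIPK1KD. The means were close, at 163, 165 and 167 CPM, and the highest and lowest libraries both belonged to APP/PS1xRIPK1KD. No log2 difference between genotypes exceeded 0.04, and the 95% intervals lay between -0.48 and 0.53.

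Hey2, a relative of Hey1 with known roles in arterial fate and in the heart (chromosome 10, 30832359 to 30842801, minus strand), was sparse, at 3.42, 2.69 and 3.19 CPM in WT, at 5.79, 1.21 and 5.21 CPM in APP/PS1, and at 3.53, 2.46 and 5.01 CPM in APP/PS1xRIPK1KD. These values rested on 65 to 278 counts per library, and APP/PS1 held both the highest and the lowest library. The log2 difference of APP/PS1 from WT was 0.39, with an interval from -0.89 to 1.67 that does not settle its direction. It was 0.82 without APP/PS1 replicate 2, 0.05 without APP/PS1 replicate 1 and 0.16 without APP/PS1 replicate 3, and it was 0.18 in replicates 1 and 2 alone.

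Heyl, a target known from smooth muscle cells and pericytes, where it follows NOTCH3 (chromosome 4, 123233556 to 123249875, plus strand), was the rarest member. It stood at 0.797, 0.0264 and 0.107 CPM in WT, at 0.692, 3.75 and 0.835 CPM in APP/PS1, and at 2.325, 2.49 and 2.09 CPM in APP/PS1xRIPK1KD. The counts behind these values were 27, 1 and 5 in WT, 11, 201 and 42 in APP/PS1, and 114, 109 and 116 in APP/PS1xRIPK1KD. All APP/PS1xRIPK1KD libraries lay above all WT libraries and close to each other, whereas APP/PS1 was split between 1 library higher than any other and a pair near the highest WT library.

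The fitted log2 difference in Heyl was 2.90 for APP/PS1xRIPK1KD against WT (95% interval 0.35 to 5.44), with an unadjusted p of 0.0289 and FDR 0.756 by edgeR. It was 5.03 without WT replicate 1, which held most of the WT counts, 2.36 without WT replicate 2, and 2.55 in replicates 1 and 2 alone. APP/PS1 differed from WT by 2.52 (0.01 to 5.03), with an unadjusted p of 0.0496 and FDR 0.811 by edgeR, and this value was 1.31 without APP/PS1 replicate 2 and 4.65 without WT replicate 1. Pooled over libraries, with 339 counts in APP/PS1xRIPK1KD and 33 in WT, the Heyl level was 8.21 times that in WT. The 95% exact Clopper-Pearson interval was 5.73 to 12.1. It takes the counts as independent, which is not assured in libraries amplified by PCR, and leaves out the spread between libraries. It is therefore too narrow to serve as an interval for the difference between genotypes. Heyl and the mural markers were both lowest on average in WT, but not in the same order elsewhere. APP/PS1xRIPK1KD replicate 1 had 2.325 CPM of Heyl beside 66.2 CPM of mural markers, and APP/PS1 replicate 3 had 0.835 CPM beside 189 CPM. The part of mural transcripts in the Heyl difference was not tested.

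**Figure D2:**
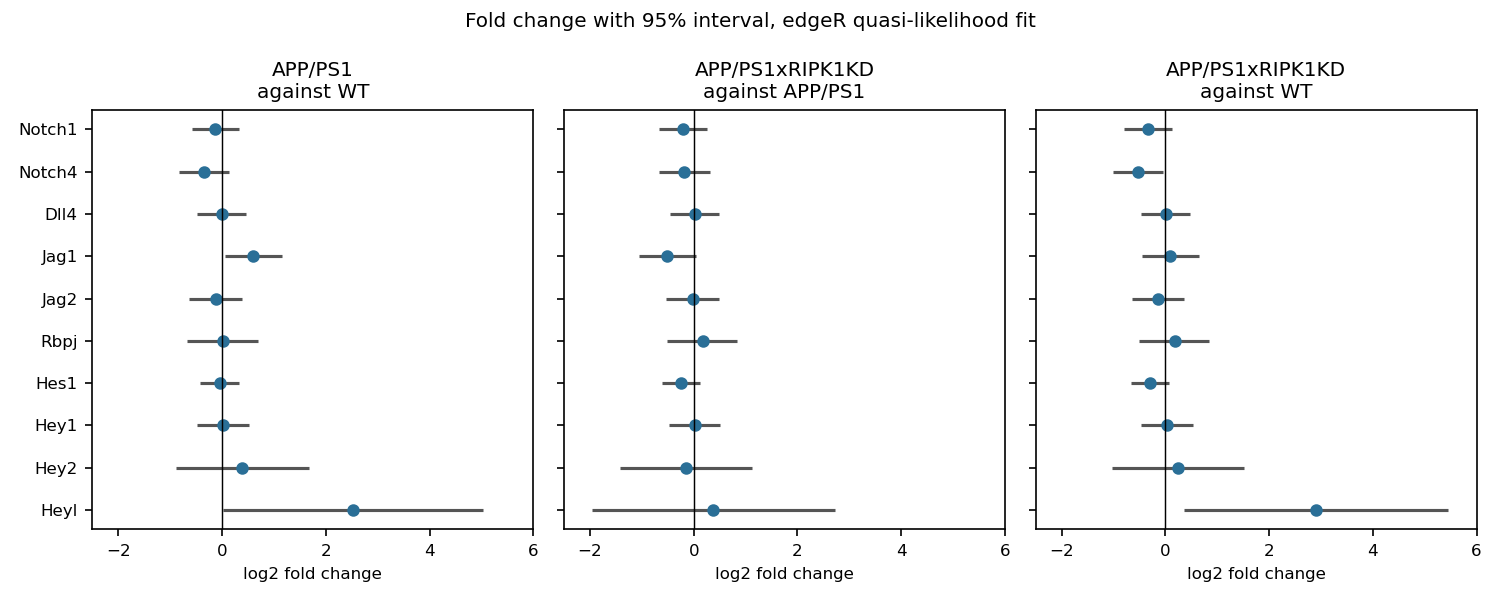
Log2 fold change (horizontal axis) of each of the 10 genes in the 3 comparisons, as point and 95% interval from the edgeR quasi-likelihood fit to all 9 libraries. The intervals of Jag1 and Heyl in APP/PS1 against WT and of Notch4 and Heyl in APP/PS1xRIPK1KD against WT lie to 1 side of 0 before adjustment for the number of genes tested, and those of Heyl span several log2 units.

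At an unadjusted p under 0.05 the fit listed 2 of 10 members in APP/PS1 against WT, Jag1 and Heyl, both higher in APP/PS1, where 6.14% of all genes were listed. It listed 0 of 10 in APP/PS1xRIPK1KD against APP/PS1, where 4.78% of all genes were, and 2 of 10 in APP/PS1xRIPK1KD against WT, Heyl higher and Notch4 lower, where 6.18% were. These shares rest on 10 genes chosen with earlier results in view, and no test was made of them. Heyl entered the fit through the genotypes in which it was higher than in WT. A test for any difference among the 3 genotypes called 0 of 10 members, where 0.0451% of all genes were called, and 0 of 10 had an unadjusted p under 0.05, where 5.62% did. Its smallest edgeR p among members was 0.0663 for Jag1 (FDR 0.872).

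The members' log2 differences lay on both sides of 0. In APP/PS1 against WT 5 were above and 5 below, with a median of 0.00, and in APP/PS1xRIPK1KD against APP/PS1 4 were above and 6 below, with a median of -0.08. In APP/PS1xRIPK1KD against WT 6 were above and 4 below, with a median of 0.02, and the median over all genes was 0.00 in each comparison. These comparisons share libraries in pairs, so their values are not independent of each other. The 95% interval lay within 2-fold in either direction for 7 of 10 members in each comparison, and the others were Jag1, Hey2 and Heyl in the comparisons with APP/PS1 and Notch4, Hey2 and Heyl in APP/PS1xRIPK1KD against WT. DESeq2 also called 0 of 10 members in the 3 comparisons, while it called 0.529%, 0.19% and 0.666% of the genes it tested. In the authors' deposited table for APP/PS1 against WT, 0 of 10 members were called where 0.209% of its 12460 genes were, and the authors' values were a log2 fold change of 0.58 for Jag1, 2.66 for Heyl and -0.36 for Notch4.

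Divided by the length of merged exons, the levels of the members over all 9 libraries spread widely. Hes1 had the highest mean, at 59.3 CPM per kilobase, followed by Hey1 at 50.5. The ligands and Notch1 formed a close group, with Dll4 at 34.9, Jag2 at 34.8, Jag1 at 31.7 and Notch1 at 30.6 CPM per kilobase. Notch4 came next at 19.5, well ahead of Rbpj at 2.38, Hey2 at 0.787 and Heyl at 0.285 CPM per kilobase. Neighbours in this order were separated to different degrees in the libraries. Notch1 exceeded Notch4, Notch4 exceeded Rbpj, and Rbpj exceeded Hey2 in 9 of 9 libraries, while Hey1 exceeded Dll4 and Hey2 exceeded Heyl in 8 of 9 and Jag2 exceeded Jag1 in 7 of 9. Hes1 exceeded Hey1, Dll4 exceeded Jag2, and Jag1 exceeded Notch1 in 5 of 9 libraries each, so these pairs had no stable order. With the longest transcript as the length, Jag2 and Notch1 moved ahead of Dll4 and Jag1, and the places of Hes1, Hey1, Notch4, Rbpj, Hey2 and Heyl were the same.

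**Figure D3:**
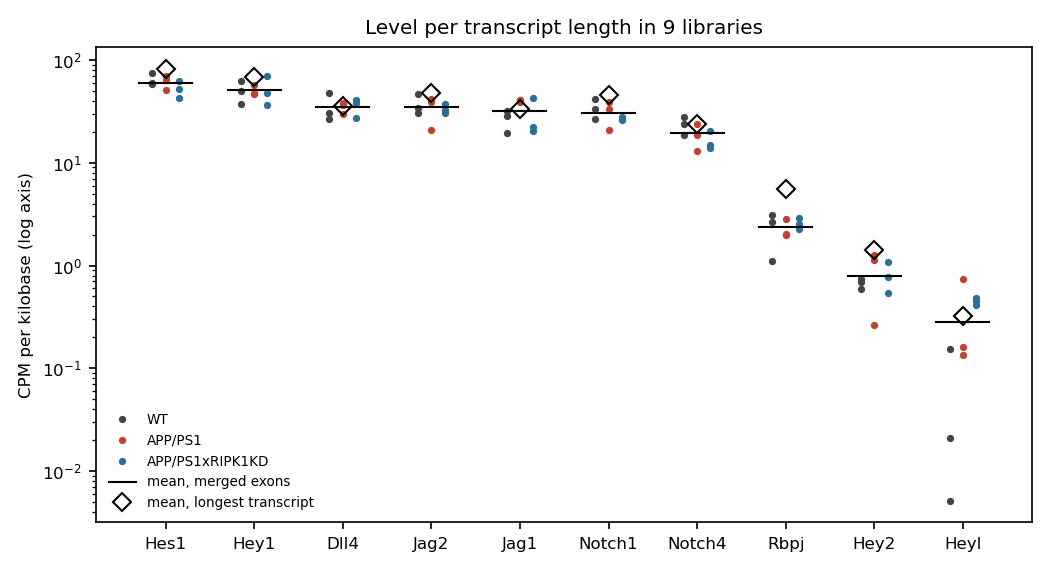
Level of each gene in CPM per kilobase on a log axis, with 1 point per library coloured by genotype, a bar for the mean over 9 libraries by merged exon length and a diamond for the mean by longest transcript. The means by merged exons run from 59.3 for Hes1 to 19.5 CPM per kilobase for Notch4, and those of Rbpj, Hey2 and Heyl lie below 3. Single libraries spread beyond these means, and the diamond of Rbpj lies at 5.53.

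The balance of ligands was compared within libraries as the log2 ratio of Dll4 to Jag1 counts, which does not depend on library scaling. It was 0.15, 0.07 and -0.87 in WT, -0.69, -1.06 and -0.71 in APP/PS1, and -0.18, 0.25 and -0.75 in APP/PS1xRIPK1KD. All 3 APP/PS1 libraries were low, and so was the third replicate of both other genotypes. Every replicate 3 was also low in Xist, and a link of Xist with the ratio was not tested. The mean ratio of APP/PS1 differed from that of WT by -0.60 and the groups overlapped, at an exact permutation p of 0.3 (2-sided, adjusted over 9 ratio comparisons 0.75). That difference ran from -0.93 without WT replicate 3 to -0.42 without WT replicate 1, and was -0.98 in replicates 1 and 2 alone. APP/PS1xRIPK1KD differed from APP/PS1 by 0.59, also with overlap (exact permutation p of 0.3). This ran from 0.85 without APP/PS1xRIPK1KD replicate 3 to 0.35 without APP/PS1xRIPK1KD replicate 2, and was 0.91 in replicates 1 and 2 alone, where the ratio was not tested.

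The log2 ratio of Notch1 to Notch4 counts was 1.40, 1.30 and 1.33 in WT, 1.87, 1.51 and 1.31 in APP/PS1, and 1.73, 1.27 and 1.67 in APP/PS1xRIPK1KD. The SD was 0.0505 in WT, 0.287 in APP/PS1 and 0.246 in APP/PS1xRIPK1KD, and the difference in spread was not tested. The log2 ratio of Hey1 to Hes1 averaged 0.30 ± 0.554 in WT, 0.40 ± 0.377 in APP/PS1 and 0.62 ± 0.387 in APP/PS1xRIPK1KD. None of the 9 differences in ratio between genotypes had libraries without overlap, and the smallest adjusted exact permutation p was 0.75.

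**Figure D4:**
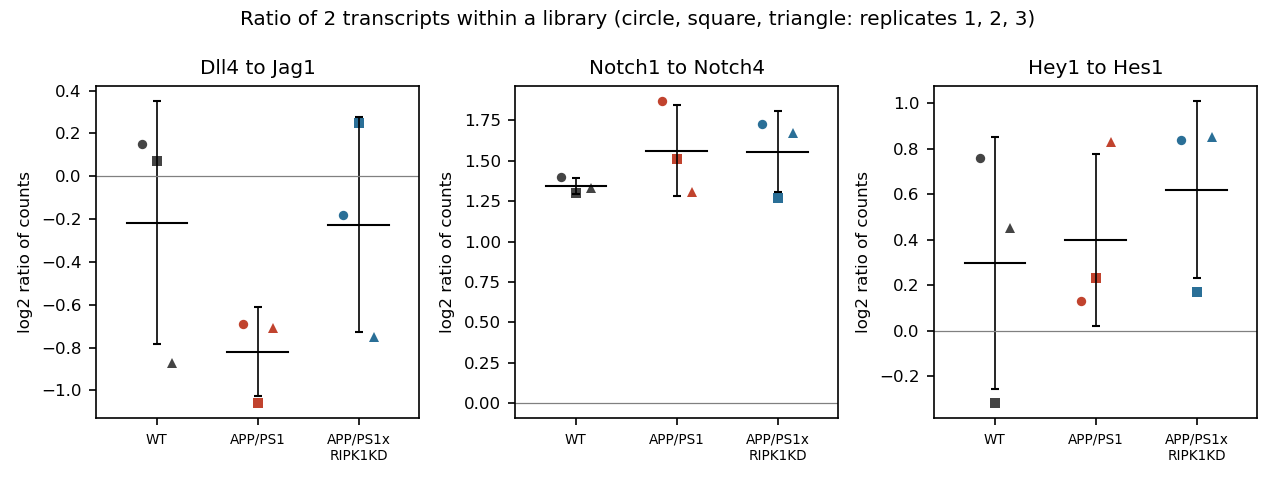
Log2 ratio of the counts of Dll4 to Jag1, Notch1 to Notch4 and Hey1 to Hes1 (vertical axes) in each library by genotype, with replicates 1, 2 and 3 as circle, square and triangle, the mean as a bar and 1 SD as an error bar. For Dll4 to Jag1 the APP/PS1 libraries lie between -1.06 and -0.69, level with the triangles of WT at -0.87 and of APP/PS1xRIPK1KD at -0.75.

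Across the 9 libraries, 31 of the 45 pairs of members had a positive correlation of log2 CPM, with a median Pearson r of 0.244 and a range of -0.55 to 0.859. The pairs with the highest r linked Notch1, Notch4, Jag2 and Hey2. Jag2 and Hey2 had r = 0.859 (exact permutation p = 0.00545) and Spearman rho = 0.783 (p = 0.0172), and r was 0.95 without the 2 libraries farthest from the median of Jag2. Notch1 and Notch4 had r = 0.817 (exact permutation p = 0.00876) and rho = 0.883 (p = 0.00308), and r was 0.89 without the 2 libraries farthest from the median of Notch1. Notch1 and Jag2 had r = 0.806 (exact permutation p = 0.00797) and rho = 0.65 (p = 0.0666), and r was 0.704 without the 2 libraries farthest from the median of Notch1.

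After adjustment over the 45 pairs none passed 0.05, and the smallest adjusted exact permutation p was 0.131, shared by these 3 pairs. With the genotype means removed r was 0.91, 0.789 and 0.836, and among the 6 libraries of replicates 1 and 2 it was 0.845, 0.828 and 0.919. The libraries share depth, ribosomal content and the mix of cells sorted, which can move many genes together. Jag1 was not among these pairs: its r with Notch1 was -0.0917 and with Dll4 0.19. Its highest with any member was 0.638 with Hey1 (exact permutation p = 0.0721, adjusted 0.519). The choice of pairs depended on the measure. With the genotype means removed, r of Jag1 with Hey1 was 0.802, and in replicates 1 and 2 it was 0.44. Jag2 and Hey1 had r = 0.557 but rho = 0.817 (exact permutation p = 0.0108, adjusted 0.242).

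**Figure D5:**
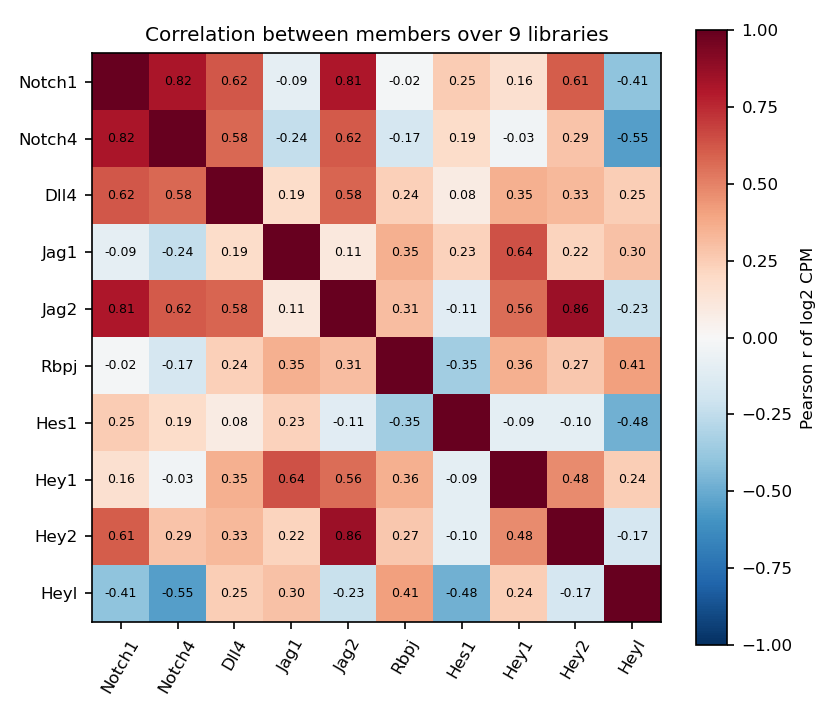
Pearson r of log2 CPM over the 9 libraries for each pair of the 10 genes, on a colour scale from -1 to 1 with the value printed in each cell. The strongest cells are Jag2 with Hey2, Notch1 with Notch4 and Notch1 with Jag2, and Heyl with Notch4 is the most negative at -0.55.

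Among 8392 other genes of at least 10 CPM, the patterns most like those of the members over 9 libraries were found for Jag1, with Rbm28 at r = 0.978 and Bmx at r = 0.972, described here without a test because they are the highest of so many. Bmx, a kinase gene used as a marker of arterial endothelium, stood at 151, 70.1 and 149.9 CPM in WT, at 170.0, 179 and 179.9 CPM in APP/PS1, and at 81.1, 87.2 and 195 CPM in APP/PS1xRIPK1KD. Its order of libraries was nearly that of Jag1, with a Spearman rho of 0.983. The sum of 12 arterial markers that includes Bmx followed it only in part. That sum was 4072, 2160 and 3353 CPM in WT, 3169, 2295 and 3518 CPM in APP/PS1, and 2097, 2318 and 3127 CPM in APP/PS1xRIPK1KD. WT replicate 2 and APP/PS1xRIPK1KD replicates 1 and 2 were low in both. APP/PS1 replicate 2 was low in the sum but not in Bmx, and WT replicate 1 was highest in the sum alone. For Notch1 the most alike were Rusc2 (r = 0.947) and Sox18 (0.934), the latter a factor of endothelial development, and for Notch4 they were Pygo2 (0.972) and Ppie (0.960). Those of Dll4 were Khnyn and Dgat1 (0.922 each), and those of Jag2 were Zc3hav1 (0.956) and Trp53i13 (0.947). Rbpj was most like Pigf (0.971) and Atrn (0.923), Hes1 like Armcx3 (0.967) and Fmo2 (0.942), and Hey1 like Abr (0.915) and Vrk1 (0.914).

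The promoters of 3 members are shown because they belong to the ligand whose libraries separated APP/PS1 from WT, to the ligand it was set against, and to the target in which the binding core of RBPJ was found. They come from RefSeq on GRCm38.p6, are written 5′ to 3′ on the strand of the gene and end at the base before the first exon of GENCODE M21. The windows are chr2:119325534-119325783 on the plus strand for Dll4, chr2:137116645-137116770 on the minus strand for Jag1 and chr10:30842802-30843033 on the minus strand for Hey2, and capitals mark the RBPJ core.
Dll4: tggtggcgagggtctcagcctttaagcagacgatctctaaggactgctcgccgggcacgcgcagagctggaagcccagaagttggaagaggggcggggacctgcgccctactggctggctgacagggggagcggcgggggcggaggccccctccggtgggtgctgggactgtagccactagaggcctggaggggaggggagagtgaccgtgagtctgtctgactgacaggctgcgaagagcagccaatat
Jag1: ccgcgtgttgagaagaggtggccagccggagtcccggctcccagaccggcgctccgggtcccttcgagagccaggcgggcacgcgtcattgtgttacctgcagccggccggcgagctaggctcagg
Hey2: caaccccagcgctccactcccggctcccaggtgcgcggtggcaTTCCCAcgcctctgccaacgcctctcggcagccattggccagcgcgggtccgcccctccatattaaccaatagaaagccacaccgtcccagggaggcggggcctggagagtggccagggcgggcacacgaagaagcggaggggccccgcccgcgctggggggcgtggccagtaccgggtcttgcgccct

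The core searched was TGGGAA, which reads TTCCCA from the other strand, in the 250 bases before each RefSeq start, and the 2 spellings do not overlap each other. RefSeq entries matched 7 of the 10 members, with 8 promoters, as Rbpj has a pair of annotated starts whose windows overlap. The core was present in 3 of these 8, those of Hey2 and Rbpj, and so in 2 of the 7 members matched. The windows of Rbpj share 1 TTCCCA site, which is counted in both. Of all 32851 promoters of the same length, 21.6% held the core. These windows differ from the printed ones of Hey2 and Jag1, since the RefSeq start lies inside the first exon annotated by GENCODE. In Hey2 the core began 207 bases before the RefSeq start and 189 bases before that exon. In Rbpj it occurred 149 and 65 bases before 1 of its starts. The others (Notch1, Notch4, Dll4, Jag1 and Jag2) had no such letters in these windows, which says nothing of the factor's binding elsewhere. Hes1, Hey1 and Heyl had no entry.

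The wider pathway was taken as 73 further genes, from receptors and ligands through cleavage, glycosylation and ubiquitin to cofactors and other targets, of which 64 entered the test. None of them passed an FDR of 0.05 by edgeR in any comparison, and DESeq2 called 0 of them. At an unadjusted p under 0.05 there were 3 higher and 3 lower in APP/PS1 against WT, where 3.49% of all genes were higher and 2.65% lower. There were 3 higher and 1 lower in APP/PS1xRIPK1KD against APP/PS1, where 2.44% and 2.34% of all genes were. There were 3 higher and 0 lower in APP/PS1xRIPK1KD against WT, where 2.97% and 3.21% were. Their median log2 differences were -0.02, 0.02 and 0.01.

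The other receptors were rare next to Notch1 and Notch4. Notch2 averaged 11.8 ± 2.39 CPM in WT, 12.3 ± 1.89 in APP/PS1 and 14.96 ± 4.22 in APP/PS1xRIPK1KD. Notch3, the receptor of mural cells, stood at 4.13, 2.61 and 3.23 CPM in WT, at 7.05, 6.39 and 4.87 CPM in APP/PS1, and at 5.04, 4.27 and 4.22 CPM in APP/PS1xRIPK1KD, with WT lowest in every library (log2 difference of APP/PS1 from WT 0.87, edgeR FDR 0.795). Notch3 is itself 1 of the 13 mural markers, and without it the marker sum still ran from 11.2 to 55.3 CPM in WT and from 176 to 225 CPM in APP/PS1.

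Of the 10 genes of receptor cleavage, Adam10, the protease that makes the first cut, averaged 224 ± 10.4 CPM in WT, 285.5 ± 37.7 in APP/PS1 and 284 ± 1.20 in APP/PS1xRIPK1KD. Both differences from WT were without overlap, at 0.35 (edgeR FDR 0.787) and 0.34 (FDR 0.69) on the log2 scale. Ncstn, a subunit of γ-secretase, differed by -0.29 in APP/PS1 against WT (edgeR FDR 0.795).

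Of the 5 genes of receptor glycosylation, Rfng, a Fringe enzyme that alters which ligands a receptor answers, stood at 37.6, 44.6 and 38.6 CPM in WT, at 32.1, 26.3 and 29.6 CPM in APP/PS1, and at 46.1, 34.6 and 41.7 CPM in APP/PS1xRIPK1KD. The APP/PS1 libraries were the lowest of all, with log2 differences of -0.46 from WT (edgeR FDR 0.787) and, for APP/PS1xRIPK1KD against APP/PS1, of 0.48 (FDR 0.98). Lfng, another Fringe, overlapped in all comparisons. The ligases and cofactors of smallest p are named with their log2 differences in brackets. They were Mib2 (0.63), Tle2 (0.87) and Sap30 (-0.66) in APP/PS1xRIPK1KD against APP/PS1. In APP/PS1xRIPK1KD against WT they were Itch (0.53) and Snw1 (0.38), and in APP/PS1 against WT Kat2a (-0.41). The lowest edgeR FDR among them was 0.662, for Itch.

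Of the other targets, 11 of 13 entered the test. Nrarp, a feedback inhibitor induced by Notch, averaged 15.8 ± 6.55 CPM in WT, 17.0 ± 4.08 in APP/PS1 and 10.5 ± 6.43 in APP/PS1xRIPK1KD, with overlap throughout. Efnb2, a marker of arterial identity, averaged 33.9 ± 3.26, 36.2 ± 0.713 and 42.7 ± 5.17 CPM in the same order, and its APP/PS1xRIPK1KD libraries lay above all others (log2 difference from WT 0.33, edgeR FDR 0.823).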

How the data were processed

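Sorted endothelial cells of 9 samples (3 for each of 3 genotypes) were measured by Smart-seq2, whose libraries keep no strand and, per the labels' protocols, were amplified by PCR. The authors deposited expected counts per gene symbol, and the submitters' processing notes name Bowtie 0.12.2, RSEM, edgeR 3.10.2 and mm10 (GRCm38). The annotation used was not given in the sources used here. The authors also deposited an edgeR table of APP/PS1 against WT whose fold changes and abundances are log2 values, whose likelihood ratio is a score, and which gives a p-value and FDR per gene.

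Expected counts were rounded, genes were kept by filterByExpr (minimum count 10, minimum total 15), libraries were scaled by TMM, and 1 edgeR quasi-likelihood model was fitted to all 9 libraries, with 2-sided tests and Benjamini-Hochberg adjustment over 13317 genes. Ratios used counts plus a pseudocount of 1. Correlations used log2 CPM with a prior count of 2. Software was R 4.3.3, edgeR 4.0.16, limma 3.58.1, DESeq2 1.42.0, Python 3.11.15 and scipy 1.17.1. On simulated data the fit recovered 47.5% of genes changed 2-fold and 74.0% of those changed 4-fold in APP/PS1 against WT, among 13039 genes. The simulation had 151 genes called against 3 in the data, so its FDR cut-off was looser. Its counts were drawn gene by gene, without shared differences in sex or cell mix. These shares therefore do not give the power to call a member here.

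The members and lists were chosen with earlier results of these data known. All members are named. Of the wider pathway, a fixed set (Notch2, Notch3, Nrarp, Efnb2, Lfng, with Ripk1, Cldn5, Pecam1 and Cdh5) and the 4 genes of smallest p per comparison with at least 5 CPM are named. Another gene of the fixed set is not reported here. For likeness, 2 genes per member of at least 10 CPM are named. Acta2, Vtn, Kcnj8, Tagln, Myh11 and Abcc9 were chosen after their values were seen. Descriptions mention a mouse per sample but nothing else ties libraries to animals, so p-values measure the spread between these samples. Reads of overlapping antisense genes cannot be told apart (Notch1, Notch4, Dll4 and Rbpj), and Rbpj has processed pseudogenes. Alternatives tried were other tools, scalings and filters, a replicate block, and libraries left out.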

Additional observations from a re-analysis of the deposited data

How the results depend on the processing

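No member passed an FDR of 0.05 in any of 19 settings (other tools, scalings, filters, sample choices). Of 570 member differences, 513 kept their direction and 57 turned it, and the cause was not tested. Heyl and Hey2 rested on 1 to 201 and 65 to 278 counts per library.

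Counts of all genes called moved as follows. In APP/PS1 against WT (3 genes) they were 75 with DESeq2, 44 with the exact test, 7 without a filter and 1 to 5 with 1 library left out. In APP/PS1xRIPK1KD against APP/PS1 (1 gene) they were 31, 32 with the exact test, 0 with limma-voom, 0 in replicates 1 and 2 only and 0 to 4 with 1 library left out. In APP/PS1xRIPK1KD against WT (5 genes) they were 92, 72 with the exact test, 2 with limma-voom, 8 with upper quartile scaling, 14 without a filter, 3 in the fit on 6 libraries, 8 in replicates 1 and 2 only and 2 to 9 with 1 library left out. For any difference (6 genes) they were 96 with DESeq2, 1 with limma-voom, 1 in replicates 1 and 2 only and 0 to 9 with 1 library left out.

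With the replicate number as a block, 2, 0 and 0 genes were called in the 3 comparisons, 0 for any difference, and 0 members. Same-numbered libraries correlated in their deviations at -0.0187 to 0.0983, and differently numbered ones at -0.101 to 0.0817. The numbers were not taken as pairs. Xist nevertheless separated every replicate 3 from replicates 1 and 2, and correlations over all genes cannot exclude a factor shared by number. The block turned Dll4 in APP/PS1 against WT (0.00) and, in APP/PS1xRIPK1KD against APP/PS1, Jag2 (0.03), Hey1 (-0.02) and Hey2 (0.00).

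In APP/PS1 against WT, Dll4 was 0.00 with DESeq2 and RLE scaling and 0.03 with limma-voom, which gave -0.15 for Hey2. Replicates 1 and 2 only gave 0.01 for Hes1 and -0.07 for Hey1. Ranges with 1 library left out were -0.32 to 0.09 (Notch1), -0.17 to 0.28 (Dll4), -0.30 to 0.13 (Jag2), -0.32 to 0.30 (Rbpj), -0.15 to 0.07 (Hes1) and -0.15 to 0.22 (Hey1).

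Between APP/PS1xRIPK1KD and APP/PS1, limma-voom gave 0.06 for Jag2, -0.03 for Hey1 and 0.38 for Hey2, and replicates 1 and 2 only gave 0.11 for Notch4, 0.07 for Jag2 and -0.17 for Hey1. Ranges with 1 library left out were -0.36 to 0.05 (Notch4), -0.08 to 0.18 (Dll4), -0.26 to 0.15 (Jag2), -0.26 to 0.22 (Hey1) and -0.57 to 0.19 (Hey2).

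Between APP/PS1xRIPK1KD and WT, replicates 1 and 2 only gave -0.21 for Dll4, -0.16 for Jag1, -0.25 for Hey1 and -0.03 for Hey2. Ranges with 1 library left out were -0.16 to 0.30 (Dll4), -0.30 to 0.29 (Jag1), -0.27 to 0.05 (Jag2), -0.15 to 0.46 (Rbpj), -0.24 to 0.24 (Hey1) and -0.04 to 0.47 (Hey2).

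By the longest transcript, levels moved to 45.9 CPM per kilobase for Notch1, 47.4 for Jag2, 5.53 for Rbpj, 82.2 for Hes1, 68.0 for Hey1 and 1.42 for Hey2, since a shorter length divides the same counts.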

Other observations

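Among the lists of other cell types, summed transcripts of 6 fibroblast markers were 0.132 to 1.24 CPM in WT, 6.82 to 13.4 CPM in APP/PS1 and 2.06 to 7.26 CPM in APP/PS1xRIPK1KD, with Lum at 0 in every library. Those of 6 choroid plexus markers were 55.9 to 90.2 CPM in WT, 70.0 to 155 CPM in APP/PS1 and 183 to 319 CPM in APP/PS1xRIPK1KD, so that APP/PS1xRIPK1KD lay above both other genotypes (exact permutation p = 0.1 for each, the smallest possible). Venous markers were 1110 to 1278 CPM in APP/PS1 and 622 to 1009 CPM in APP/PS1xRIPK1KD, without overlap, and 684 to 1987 CPM in WT. The sums of endothelial, arterial, astrocyte, oligodendrocyte, microglial, neuronal, leukocyte and erythroid markers overlapped between the genotypes. The part of these transcripts in the values of the Notch genes was not tested.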
